A study of Homo sapiens with 6 samples.

Results

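A set of 7 genes of secretory and mucosal epithelium were followed in BRL-50481-treated and DMSO-treated MDA-MB-231 cells: the Kazal-type inhibitor SPINK4, the scavenger receptor DMBT1, the pentaspan membrane protein PROM2, the mucins MUC5B and MUC1, the lipocalin LCN2 and the leukocyte protease inhibitor SLPI. All 7 had a row among the 15651 genes of the table, and all 7 passed the filter on low values that 15246 genes passed, which asks for normalized counts no lower than 4 in 3 or more libraries. SPINK4, DMBT1, PROM2 and MUC5B were chosen by their large rise in normalized count in these same libraries, so their values are a description and carry no test. MUC1, LCN2 and SLPI were listed with them by function. The 7 had been grouped as induced genes, and the data went against that for 2 of them: LCN2 fell, and no change of SLPI was detectable at its depth of a few reads per library.

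MDA-MB-231 is an established human cell line of triple-negative breast cancer (TNBC), and BRL-50481 is a small-molecule inhibitor of PDE7A, a phosphodiesterase that hydrolyses cyclic AMP. RNA was sequenced from 3 DMSO-treated and 3 BRL-50481-treated cultures of this line, described as biological replicates in the series record, and the labels name no genetic change in either group. The treatment text of the labels gives 50 μM of BRL-50481 for 72 h, as the Methods do, whereas 5 μM and 48 h stand in the tag for treatment. The experiment asked which transcripts change when PDE7A is inhibited, in 1 line and with 1 inhibitor.

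Mucosal epithelia coat themselves with gel-forming mucins such as MUC5B, which are secreted, and with membrane-bound mucins such as MUC1, which stay attached to the cell. The same cells release proteins that bind or starve bacteria, among them DMBT1 and LCN2, and inhibitors that hold proteases in check, among them SLPI. Breast tumours commonly carry MUC1, often with altered O-linked sugars, and LCN2 is an iron-siderophore carrier whose transcription is a well-known output of NF-κB.

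The libraries held 30750573 to 33446984 reads on genes. DMSO replicate 1 stood farthest from its group, with a residual SD of 0.141 on the log2 scale, against 0.0791 to 0.0832 in the BRL-50481 libraries. Of the mesenchymal markers listed for the line, the intermediate filament VIM had the highest mean normalized count in DMSO, at 58840. The receptor AXL followed at 45015 and the hyaluronan receptor CD44 at 31414. Not all of the list was abundant: SPARC was at 14 and CDH2 at 16.5 in DMSO, and TWIST1 was not analysed here. ESR1 was not analysed here, PGR failed the filter on low values, and the adherens junction cadherin CDH1 had a mean of 38.2. Epithelial keratins were present beside these, with KRT18 at 15205 and KRT7 at 8323. Of 14 markers of other cell types, 5 had a row. CD68, PECAM1 and PDGFRB were higher after BRL-50481, CD14 and COL1A1 were not called, and the summed level of the 5 ranged from 4727 to 5252 in DMSO and from 6424 to 6869 in BRL-50481. PTPRC, CD3E, MS4A1, VWF, HBA1, HBB, COL3A1 and ALB were not analysed here, and the part of other cells in the values below was not tested.

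Promoters are shown for the genes with the 2 largest rises (SPINK4 and DMBT1), for the tested gene that rose (MUC1) and for the gene that fell (LCN2), which went in opposite directions. Each line gives the 250 bases before the transcription start in RefSeq (GRCh38.p14), 5′ to 3′ on the strand of the gene, at chr9:33239917-33240166 for SPINK4 (plus strand), chr10:122560504-122560753 for DMBT1 (plus strand), chr1:155192916-155193165 for MUC1 (minus strand, the first of its listed starts) and chr9:128149203-128149452 for LCN2 (plus strand). The SPINK4 and LCN2 windows lie inside the gene bodies given below, and the DMBT1 window partly so. Those bodies come from GENCODE, which places the starts farther upstream or otherwise than RefSeq, and upstream starts are not shown. Capitals mark matches, on either strand, to the ETS letters AGGAAG, the TATA box TATAAA, the GC box GGGCGG, the C/EBP letters TTGCNNAA or the AP-1 letters TGANTCA. In DMBT1 an ETS match and a TATA match overlap by their shared T, and in MUC1 3 GC boxes overlap.
SPINK4: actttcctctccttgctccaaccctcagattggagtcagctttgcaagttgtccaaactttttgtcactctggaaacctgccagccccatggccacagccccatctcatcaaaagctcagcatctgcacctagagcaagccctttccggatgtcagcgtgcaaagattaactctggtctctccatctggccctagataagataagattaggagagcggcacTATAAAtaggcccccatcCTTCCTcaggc
DMBT1: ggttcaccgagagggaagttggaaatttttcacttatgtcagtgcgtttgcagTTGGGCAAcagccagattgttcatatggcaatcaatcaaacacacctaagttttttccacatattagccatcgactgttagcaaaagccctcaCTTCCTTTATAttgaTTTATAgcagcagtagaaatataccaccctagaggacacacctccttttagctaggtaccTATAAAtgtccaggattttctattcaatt
MUC1: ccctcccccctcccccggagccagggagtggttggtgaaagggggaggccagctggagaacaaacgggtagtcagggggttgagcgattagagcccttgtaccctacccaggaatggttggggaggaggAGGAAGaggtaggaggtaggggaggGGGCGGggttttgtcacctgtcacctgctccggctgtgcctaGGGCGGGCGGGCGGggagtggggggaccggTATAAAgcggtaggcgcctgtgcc
LCN2: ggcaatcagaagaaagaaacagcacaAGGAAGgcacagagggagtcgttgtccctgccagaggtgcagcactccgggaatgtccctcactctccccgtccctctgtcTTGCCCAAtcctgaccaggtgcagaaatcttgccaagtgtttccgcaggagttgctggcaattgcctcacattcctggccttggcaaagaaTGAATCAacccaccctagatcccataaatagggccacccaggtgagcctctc

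Promoters of 5 of the 7 genes matched in RefSeq (SPINK4, DMBT1, PROM2, MUC1 and LCN2), and the ETS letters occurred in 5 of 5. They are common letters, present in 28.7% of all 27305 promoters and in 28.1% of the 10958 promoters of tested genes. A TATA box on the strand of the gene lay 29 bases before the start in SPINK4 and DMBT1 and 24 bases before it in MUC1, against 5.59% of the promoters of tested genes with TATAAA anywhere in the window on either strand and 11.1% of all promoters. The GC box, in 65.6% of the promoters of tested genes and 42.3% of all, occurred in PROM2 and MUC1. C/EBP letters, in 6.0% of the promoters of tested genes and 9.13% of all, occurred in DMBT1 and LCN2, and the AP-1 letters, in 4.38% and 6.6%, occurred in LCN2.

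The letters most often linked with cyclic AMP, the CRE (TGACGTCA) and its half-site (TGACG), occurred in 0 of the 5 windows. The half-site was in 28.8% of the promoters of tested genes and 21.7% of all, and the full CRE in 2.76% and 1.77%. STAT letters (TTCNNNGAA, 5.91% and 6.78%) and forkhead letters (TGTTTAC, 1.87% and 2.98%) also occurred in 0 of 5. The 5 windows were poor in CpG, with 3 in SPINK4 and DMBT1, 4 in LCN2, 5 in PROM2 and 11 in MUC1, against a median of 20 over the promoters of tested genes. Their GC content ran from 39.6% in DMBT1 to 66.0% in MUC1, against a median of 64.8% over the same promoters of tested genes. These are matches of letters in a short window, and no binding was measured here.

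Among the secreted and membrane-bound mucins, MUC5B and MUC1 were both higher in BRL-50481-treated MDA-MB-231 cells. MUC5B (ENSG00000117983.17, chr11:1223066-1262172, plus strand, GRCh38) encodes a gel-forming mucin of airway and salivary mucus. Its normalized count, which is the read count divided by the size factor of the library, was 52.6, 31.3 and 72.5 in DMSO replicates 1, 2 and 3 and 251.7, 279.0 and 220.0 in BRL-50481 replicates 1, 2 and 3. The lowest treated library stood 3.03-fold above the highest DMSO library, although the DMSO libraries themselves spread 2.31-fold. The mean moved from 52.2 ± 20.6 to 250.2 ± 29.5 (SD, n = 3), 4.8-fold, and the log2 fold change of the normalized count with 1 added was 2.31 (SE 0.236). In bulk libraries such as these, more or fewer cells with a transcript and more or less of it per cell cannot be told apart. The antisense RNA MUC5B-AS1 overlaps exons of MUC5B on the other strand, and reads were counted by strand. MUC5B also shares repeats with its paralogs, so a split of reads between them by the counting is uncertain.

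MUC1 (ENSG00000185499.17, chr1:155185824-155192916, minus strand) encodes the membrane-bound mucin of the apical surface of glandular cells. Its normalized count was 191.5, 203.8 and 128.7 in the DMSO libraries and 348.3, 432.1 and 368.3 in the BRL-50481 libraries. All 3 treated libraries were above all 3 DMSO libraries, of which replicate 3 was the lowest. The mean rose from 174.7 ± 40.3 to 382.9 ± 43.8 (SD, n = 3), 2.19-fold, with a log2 fold change of 1.15 (95% interval 0.81 to 1.49; limma, Benjamini-Hochberg adjusted p = 3.24e-05). MUC1 was thus among the genes called higher, which made up 28.9% of the 15246 tested, while 29.8% were called lower. A protein-coding gene without a symbol shares exons with MUC1 on the same strand in the annotation used here, so reads of the pair cannot be told apart there.

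**Figure D1:**
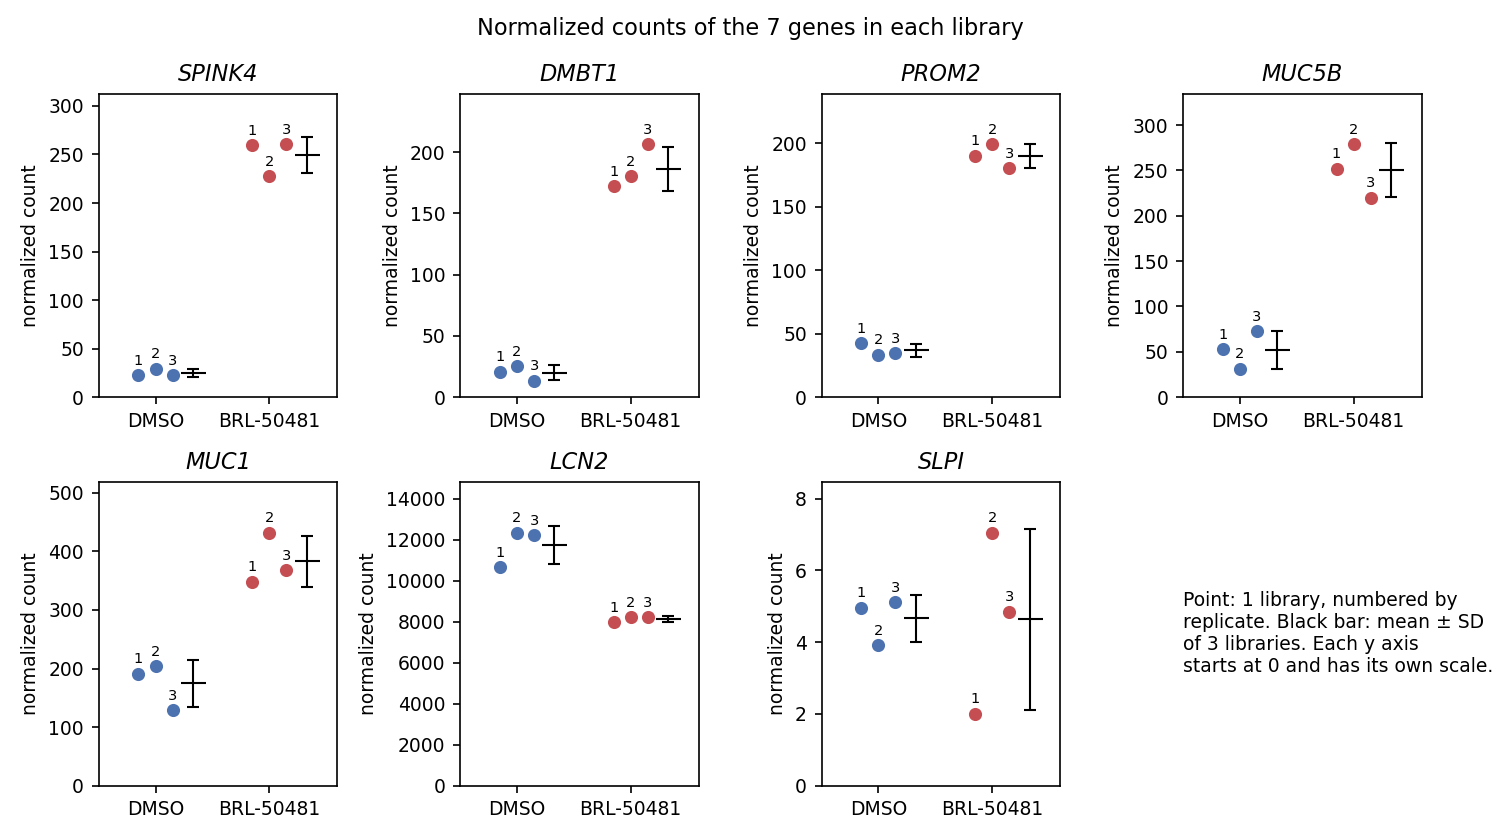
Normalized counts (y axis, linear, from 0, with a scale for each gene) of the 7 genes in 3 DMSO-treated and 3 BRL-50481-treated libraries (x axis); each point is a library with its replicate number, and the black bar is the mean ± SD. The groups are apart and higher after BRL-50481 for SPINK4, DMBT1, PROM2, MUC5B and MUC1, apart and lower for LCN2, and overlapping for SLPI.

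The genes of the protease inhibitor families parted. SPINK4 (ENSG00000122711.9, chr9:33218365-33248567, plus strand) encodes a small Kazal-type peptide typical of goblet cells of the gut. Its normalized count was 22.8, 29.4 and 22.5 in DMSO and 259.7, 227.6 and 260.7 in BRL-50481. The DMSO libraries lay within 1.31-fold of each other, and the lowest treated library was 7.75-fold above the highest of them. The mean moved from 24.9 ± 3.9 to 249.4 ± 18.8 (SD, n = 3), 10.0-fold, with a log2 fold change of 3.28 (SE 0.164). Behind these means stood 75 reads in DMSO and 753 in BRL-50481. BAG1, a co-chaperone gene on the opposite strand, overlaps the body of SPINK4 but none of its exons.

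SLPI (ENSG00000124107.5, chr20:45252239-45254564, minus strand) encodes the secretory inhibitor of leukocyte elastase. It was close to the detection limit in every library, at normalized counts of 4.96, 3.92 and 5.11 in DMSO and 2.01, 7.05 and 4.85 in BRL-50481. The groups overlapped, and both the lowest and the highest of the 6 libraries were treated ones. In all, 14 reads were counted in each group, a ratio per read of 1.05 with an exact 95% interval of 0.464 to 2.37 that covers counting error only. The log2 fold change was -0.11 (95% interval -1.33 to 1.10; limma, Benjamini-Hochberg adjusted p = 0.879), so no change was detected. Changes inside that interval remain compatible with these libraries. Adding 1 before taking log2 understates changes at such low counts.

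The defence proteins DMBT1 and LCN2 moved in opposite directions. DMBT1 (ENSG00000187908.20, chr10:122560665-122643736, plus strand) encodes a secreted scavenger receptor that binds bacteria and mucins. Its normalized count was 20.8, 25.5 and 13.3 in DMSO and 172.1, 180.3 and 206.5 in BRL-50481. DMSO replicate 3 was the lowest of the 6 libraries and treated replicate 3 the highest. The mean moved from 19.9 ± 6.15 to 186.3 ± 17.9 (SD, n = 3), 9.38-fold, with a log2 fold change of 3.21 (SE 0.223), and 60 reads in DMSO stood against 563 in BRL-50481.

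LCN2 (ENSG00000148346.12, chr9:128149071-128153453, plus strand) had the highest level per kb of the 7 in both groups. Its normalized count was 10669, 12346 and 12213 in DMSO and 7986, 8218 and 8214 in BRL-50481. Every treated library was below every DMSO library, and the treated libraries were within 1.03-fold of each other. The mean fell from 11743 ± 931.8 to 8139 ± 132.7 (SD, n = 3), to 0.693 of the DMSO level, with a log2 fold change of -0.53 (95% interval -0.65 to -0.40; limma, Benjamini-Hochberg adjusted p = 4.46e-06). With 35312 reads in DMSO and 24566 in BRL-50481, counting error was small here. Without DMSO replicate 1, the library farthest from its group, the log2 fold change was -0.59.

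PROM2 (ENSG00000155066.16, chr2:95274449-95291308, plus strand) encodes a cholesterol-binding protein of membrane protrusions, related to the stem cell marker PROM1. Its normalized count was 42.7, 33.3 and 34.7 in DMSO and 190.3, 199.4 and 180.3 in BRL-50481. The treated libraries were alike, within 1.11-fold, and the lowest of them was 4.23-fold above the highest DMSO library. The mean moved from 36.9 ± 5.04 to 190.0 ± 9.58 (SD, n = 3), 5.15-fold, with a log2 fold change of 2.34 (SE 0.155). PROM1 failed the filter on low values, at means of 1.65 and 5.31.

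Across the 7 genes, 5 had treated libraries that all lay above the DMSO libraries, 4 of them chosen for that rise, 1 had them all below, and 1 overlapped. Over all genes tested, 31.9% were higher without overlap and 32.3% lower without overlap. Among the 3 genes not chosen for a rise, 1 was called higher, 1 lower and 1 was not called. The coefficient of variation of the 5 higher genes ran from 13.7% to 39.5% over the DMSO libraries, and from 5.04% to 11.8% over the treated ones. Their libraries did not share an order: MUC5B was highest in DMSO replicate 3, where DMBT1 and MUC1 were lowest. Without DMSO replicate 1 the log2 fold changes were 3.23 for SPINK4, 3.26 for DMBT1, 2.45 for PROM2, 2.36 for MUC5B and 1.23 for MUC1.

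Per kb of canonical transcript, the order of the levels changed with treatment. In DMSO the mean normalized count per kb was 14320 for LCN2, 96.4 for MUC1, 62.4 for SPINK4, 7.82 for SLPI, 7.8 for PROM2, 2.91 for MUC5B and 2.49 for DMBT1. Between neighbours in this order, the ranges over libraries overlapped for MUC1 and SPINK4, for SLPI and PROM2 and for MUC5B and DMBT1, and not for the others. In BRL-50481 the values were 9926 for LCN2, 625.0 for SPINK4, 211.4 for MUC1, 40.2 for PROM2, 23.3 for DMBT1, 14.0 for MUC5B and 7.78 for SLPI, and no neighbours in this order overlapped. SPINK4 thus stood above MUC1, and SLPI, at 7.82 and 7.78, came last with PROM2, DMBT1 and MUC5B above it. SPINK4, DMBT1, PROM2 and MUC5B were chosen for their rise, so the new order restates that choice. Summed without regard to length, the 5 higher genes gained 950.4 normalized counts (308.5 in DMSO, 1259 in BRL-50481) while LCN2 fell by 3603, and LCN2 made up 97.4% of the normalized counts of the 7 in DMSO and 86.6% in BRL-50481.

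**Figure D2:**
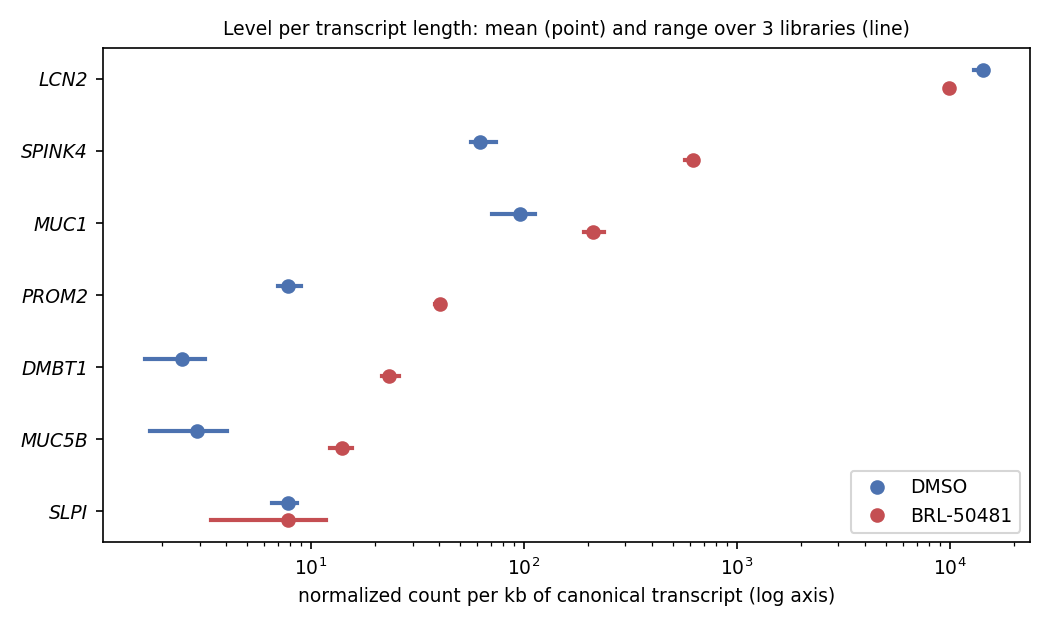
Mean normalized count per kb of canonical transcript (x axis, log scale) of each gene in DMSO and BRL-50481, with a line for the range over the 3 libraries of the group. LCN2 stays on top at 14320 and 9926, SPINK4 moves from 62.4 to 625.0 and past MUC1, and SLPI overlaps itself between the groups.

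By log2 fold change among all 15246 genes tested, SPINK4 ranked 5, DMBT1 ranked 6, PROM2 ranked 51, MUC5B ranked 54 and MUC1 ranked 669. Among the 3785 genes that were higher without overlap and had a mean normalized count of at least 100, SPINK4 ranked 1, DMBT1 ranked 2, PROM2 ranked 4, MUC5B ranked 5 and MUC1 ranked 148. KIAA0754 ranked between DMBT1 and PROM2, with a log2 fold change of 2.55 that is uncertain because RefSeq lists its symbol as a synonym of MACF1. ARHGEF37, a guanine nucleotide exchange factor gene just below MUC5B, had 2.31. The ranks describe the choice of the genes, and SPINK4, DMBT1, PROM2 and MUC5B reach a mean of 100 only through their treated libraries.

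The non-member with the most similar profile over the 6 libraries was sought for each gene among 11449 genes, by the root mean square difference of the centred log2 values. This distance is set mainly by the difference between the groups, so for the 4 genes chosen by their rise it restates the size of that rise. The nearest gene was FAXDC2 for DMBT1, at 0.522, and the granulocyte growth factor CSF3 for SPINK4, at 0.513. PROM2 was close to the interferon-inducible helicase gene DDX60 at 0.0766, and MUC5B was nearest to the phospholipase gene PLB1 at 0.206. MUC1 was nearest to PDE2A, a cyclic nucleotide phosphodiesterase, at 0.0619. The profile of LCN2 was a common one, with 2410 genes within 0.15 of it, against 7 within that distance of MUC1. SLPI, with its few reads, was nearest to IQCC at 0.285.

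The mucins beyond MUC5B and MUC1 went both ways. Of 20 other mucins and mucin-like genes, 8 were tested, with 3 higher and 2 lower and a median log2 fold change of 0.34 beside 0.015 over all genes tested. For this list and those below, the shares over all genes tested were 28.9% called higher and 29.8% called lower. All the lists were written with earlier results of these libraries known. MUC5AC, the gel-forming mucin that lies 21928 bases from MUC5B on the same strand, had normalized counts of 471.3, 283.1 and 353.4 in DMSO and 1107, 1348 and 1225 in BRL-50481. The groups were far apart, with a log2 fold change of 1.76 (SE 0.143; limma, Benjamini-Hochberg adjusted p = 3.92e-07), on the same side as MUC5B in 3 of 3 treated libraries. MUC4, a membrane-bound mucin, rose from 193.0 ± 36.3 to 314.9 ± 33.8 (SD, n = 3; limma, adjusted p = 0.000566). OVGP1, an oviduct glycoprotein, fell from 119.5 ± 13.4 to 50.5 ± 14.1 (limma, adjusted p = 0.00012), and the sialomucin CD164 was not called at 6160 and 6001. The gut gel-forming mucin MUC2 and MUC20, named after their values were seen, were the other calls, both at low counts. MUC2 had means of 2.35 and 21.9 (adjusted p = 0.000781 in limma) and MUC20 had 13.6 and 3.69 (adjusted p = 0.0174 in limma).

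Genes that build the O-linked sugars of mucins were tested in 19 of 24 cases, with 10 higher, 2 lower and a median of 0.23. The first step, addition of GalNAc to the protein, is made by GALNT enzymes. GALNT5 rose from 360.5 ± 61.7 to 785.9 ± 41.8 (SD, n = 3; limma, adjusted p = 1.4e-06), with GALNT12 (394.0 to 699.9, adjusted p = 1.51e-06) and GALNT6 (1051 to 1637, adjusted p = 1.09e-06) on the same side. GALNT2, GALNT10 and ST3GAL1, a sialyltransferase, had the highest counts of the list and rose by 0.23, 0.31 and 0.22 on the log2 scale. The lower genes, named after their values were seen, were AGR2, a disulfide isomerase needed for mucin folding, from 604.5 to 471.7, and C1GALT1C1, the chaperone of core 1 synthase, from 1229 to 1033.

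Among 32 other mucosal defence genes, 11 were tested, 7 were higher and 0 lower by limma, and the median was 0.63. This count stands beside 28.9% higher and 29.8% lower over all genes tested. At an unadjusted p under 0.05 in limma, and after adjustment in edgeR and DESeq2, the number lower was also 0. LCN2 therefore fell where the tested genes of its own list were higher or not called. ZG16B, a secreted lectin of exocrine glands, rose from 90.5 ± 18.4 to 187.5 ± 21.2 (SD, n = 3; limma, adjusted p = 9.94e-05). CLU, an extracellular chaperone, rose from 1361 to 2264 and FCGBP, an IgG-binding mucus protein, from 232.8 to 373.8. The acute phase genes SAA1 (6414 to 8651) and SAA2 (3586 to 4784) rose as well, although these near-identical copies could share reads. Complement C3, with the highest count of the list, was not called at 12653 and 13134. LTF and LYZ, named after their values were seen, were the remaining calls at means under 50.

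In the families of SPINK4 and SLPI, 6 of 20 other Kazal, WAP and Kunitz inhibitors were tested, with 2 higher, 2 lower and a median of -0.003. SPINT2, an inhibitor of membrane serine proteases, rose from 8497 ± 530.2 to 10174 ± 112.4 (SD, n = 3; limma, adjusted p = 0.000702), and WFDC3 rose from 63.2 to 95.5. SPINT1 was not called. SPINK1, the pancreatic relative of SPINK4 and named after its values were seen, went the other way, from normalized counts of 14.9, 39.2 and 22.5 in DMSO to 4.03, 3.02 and 0.969 in BRL-50481 (limma, adjusted p = 0.000301). WFDC2, also named after its values were seen, fell from 61.1 to 32.1. The log2 fold changes of the 6 ran from -2.85 to 0.59, against 3.28 for SPINK4.

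**Figure D3:**
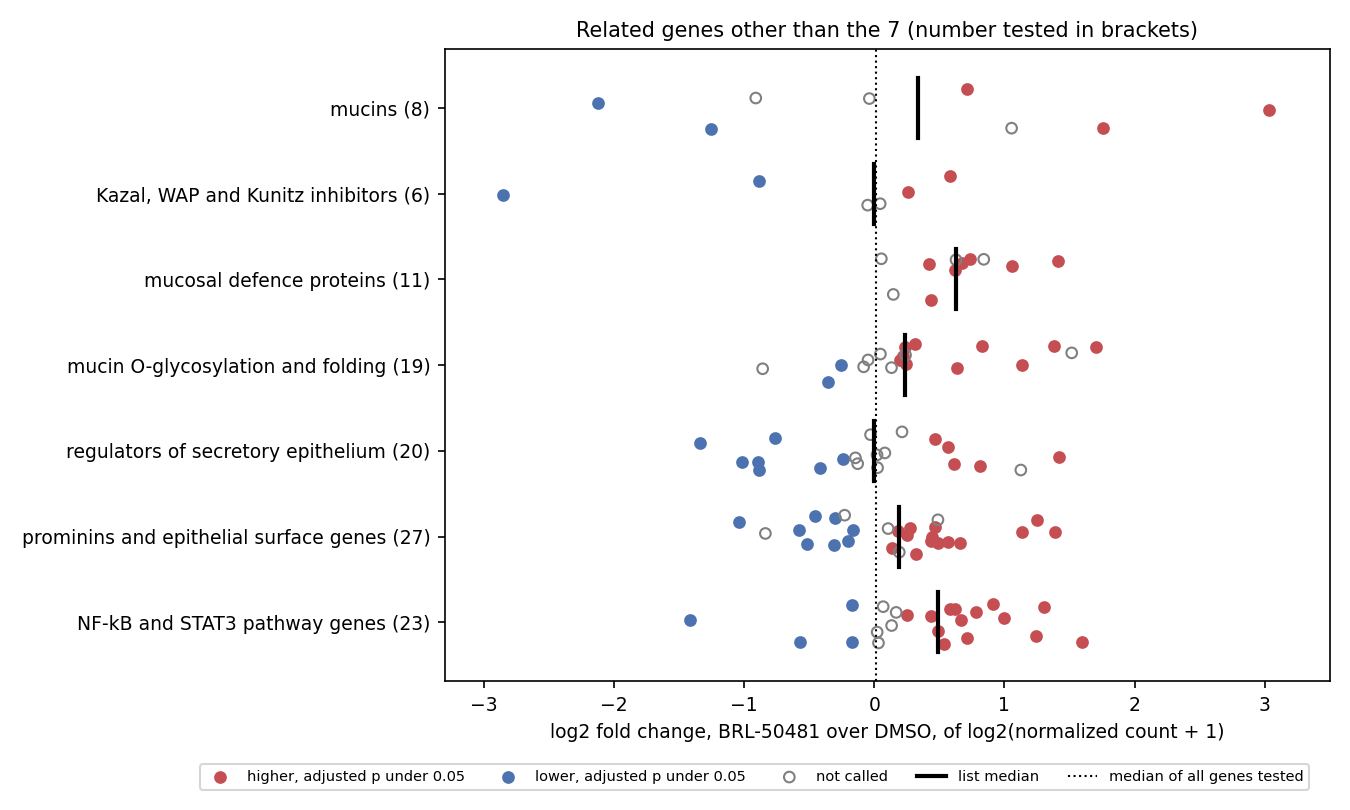
Log2 fold change, BRL-50481 over DMSO (x axis), of each tested gene in 7 lists of related genes (y axis, number tested in brackets), without the 7 genes themselves. Filled points passed an adjusted p of 0.05, the black bars are list medians and the dotted line is the median of all genes tested, 0.015; the medians run from -0.004 for the regulators to 0.63 for the mucosal defence genes.

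Transcription factors linked with secretory epithelium went both ways, with 5 higher, 7 lower and a median of -0.004 over the 20 tested of 30. EHF, an epithelial ETS factor, rose from 7259 ± 574.0 to 12700 ± 282.5 (SD, n = 3), a log2 fold change of 0.81 (limma, adjusted p = 1.02e-07). Other factors fell: KLF5 from 2815 to 1652, the grainyhead factor GRHL1 from 207.2 to 110.5 and XBP1, a regulator of secretory capacity, from 8609 to 6453. SOX9 was not called. SPDEF, an ETS factor known for goblet cell differentiation, rose from 648.4 to 892.3 (limma, adjusted p = 0.000723), and the ETS factor ELF3, named after its values were seen, was not called, at 876.6 and 792.4. Whether any of these factors bears on the 7 genes was not tested.

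Around PROM2, 27 of 34 other epithelial surface genes were tested, with 14 higher, 8 lower and a median of 0.19. CDH1 rose from 38.2 ± 9.13 to 99.8 ± 6.07 (SD, n = 3; limma, adjusted p = 4.28e-05), and the epithelial splicing factor ESRP1 from 58.5 to 142.1. CD24, a mucin-like surface glycoprotein, fell from 825.8 to 401.2 (limma, adjusted p = 8.69e-08). CDCP1 and KRT7, with KRT18 the genes with the highest counts, rose by 0.32 and 0.47 on the log2 scale, while KRT18 fell by 0.31. Luminal breast markers were split, with 4 higher and 4 lower of 11 tested and a median of 0.19. Of 10 mesenchymal markers tested, 6 were higher and 1 lower, with a median of 0.32, and VIM rose from 58840 to 87654 in the same libraries in which CDH1 and MUC1 rose.

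LCN2 was also set beside the NF-κB and STAT3 pathway, to which its transcription is commonly linked. All 23 genes of that list were tested, with 14 higher, 4 lower and a median of 0.49, beside 28.9% higher and 29.8% lower over all genes tested. CXCL2 rose from 1045 ± 26.1 to 3162 ± 92.9 (SD, n = 3; limma, adjusted p = 4.93e-10), and CXCL1 from 1480 to 3658. CXCL8 (10790 to 18541), IL1A (8358 to 15730) and the shared receptor chain IL6ST (17501 to 24429) had the highest counts and rose. NFKBIZ, the nuclear cofactor known for driving LCN2 and named after its values were seen, rose from 1056 to 2102 (limma, adjusted p = 6.38e-08), opposite to LCN2. IL6R, the receptor of IL-6, fell from 271.5 to 101.0. The other lower genes, named after their values were seen, were SOCS3, RELA and NFKBIA, on the side of LCN2. Their log2 fold changes were -0.57, -0.17 and -0.17. NFKB2, RELB, TNFAIP3, IL17RA and STAT3 were not called, so the list did not move as 1. The reason for the different direction of LCN2 was not tested.

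Over the 7 related lists together, 114 of 183 genes were tested, and 55 of them (48.2%) were higher and 25 (21.9%) lower, with a median of 0.24. The corresponding shares of all genes tested were 28.9% and 29.8%. The lists were written with earlier results of these libraries known, so their direction is not independent evidence.

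The chromosomal neighbours of the 7 genes went both ways. Within 100 kb of the gene bodies, 73 genes are annotated, 35 were tested, 6 were higher and 13 lower. Over all genes tested, 28.9% were called higher and 29.8% lower. MUC5AC was the neighbour of MUC5B with the same direction, while TOLLIP, an adaptor of Toll-like receptor signalling on its other side, fell from 3169 to 2385. Of the 13 tested near MUC1, 4 were higher and 5 lower. THBS3, a thrombospondin gene 2672 bases from MUC1 on the same strand, rose from 116.2 to 319.1, a log2 fold change of 1.47 (limma, adjusted p = 1.24e-06). FAM189B, also on the strand of MUC1, rose by 0.38 on the log2 scale. The ephrin genes EFNA3 and EFNA1 and the channel gene HCN3, on the opposite strand, fell by 1.37, 0.92 and 0.97 on the log2 scale. CLK2 and SCAMP3, on the strand of MUC1, fell by 0.52 and 0.37.

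Near LCN2, 4 of 8 tested genes were lower and 0 higher by limma, edgeR or DESeq2, with 1 higher at an unadjusted p under 0.05 in limma. Such calls were common, at 29.8% lower over all genes tested, so these few neighbours do not mark out a region. The carrier gene SLC25A25 fell by 0.97 on the log2 scale, more than LCN2 itself, and SLC25A25-AS1, PTGES2 and NAIF1 fell by 0.54, 0.48 and 0.45. The 1 gene tested near DMBT1, the secreted protease gene HTRA1, fell from 1038 to 558.1 (limma, adjusted p = 1.73e-07), opposite to DMBT1. Beside SPINK4, B4GALT1 rose by 0.14 and BAG1 and CHMP5 fell by 0.19 and 0.20. Near PROM2 2 genes were tested and near SLPI 3, and 0 were called by limma, edgeR or DESeq2 or had an unadjusted p under 0.05 in limma.

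**Figure D4:**
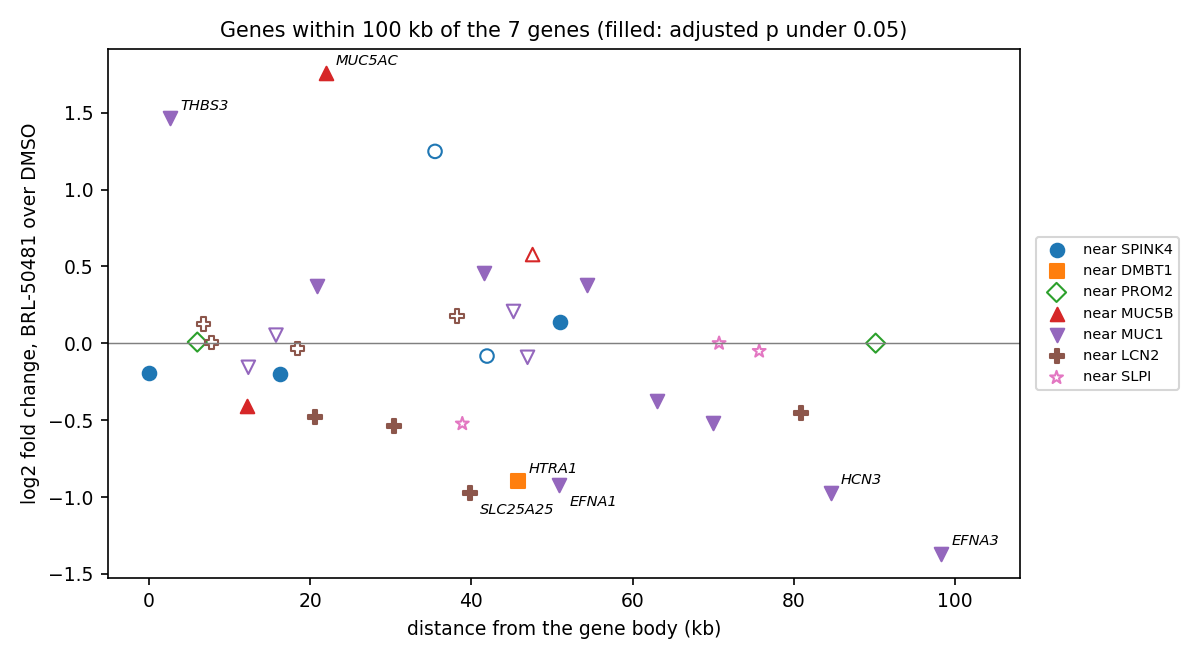
Log2 fold change, BRL-50481 over DMSO (y axis), of each tested gene within 100 kb of the 7 genes against its distance from the gene body (x axis, kb), with the marker naming the gene it is near; filled markers passed an adjusted p of 0.05. MUC5AC near MUC5B (1.76) and THBS3 near MUC1 (1.47) are at the top, and EFNA3 near MUC1 (-1.37) is at the bottom.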

How the data were processed

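RNA sequencing of 6 libraries was analysed, 3 of DMSO-treated and 3 of BRL-50481-treated MDA-MB-231 cells, grouped by their labels. According to the Methods and the submitters' processing notes, the authors aligned single-end reads to hg38 with STAR 2.7.1a, counted them per gene with HTSeq by strand on the UCSC annotation, removed low genes and normalized with DESeq2 1.28. The labels describe oligo-dT selection and the series record ribosomal RNA depletion. The deposited signal is the count of a gene divided by the size factor of its library, called the normalized count here. The deposited fold changes and p-values of the authors were not used. In each library 100% of values were a whole number of reads times 1 fixed step, so reads were recovered by division. Depth was 30750573 to 33446984 reads on genes. The intervals on reads cover counting error only, and p-values measure the spread between these cultures.

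The 7 genes and all gene lists were chosen with earlier results of these data known. Genes with normalized counts no lower than 4 in 3 or more libraries were fitted with limma 3.58.1 (R 4.3.3, trended eBayes) after adding 1 and taking log2, which understates the change of low genes, and adjusted p-values are Benjamini-Hochberg over the 15246 genes tested. Calls are at an adjusted p under 0.05. Counts of related genes leave out the 7. Besides the 7, the genes named are, for each list, up to 3 called genes with the largest change and a mean of at least 50 and up to 3 with the highest mean, called genes within 100 kb, the nearest profile with a mean of at least 100, and genes ranked beside the 4 chosen for their rise. Exceptions are marked as named after their values were seen, and some genes that fall under this rule are not reported here. Positions and lengths come from GENCODE on hg38 and promoters from RefSeq. The alternatives comprised median centring, quantile normalization, an untrended limma fit, pseudocounts of 4 and 0.5, filtering on a mean of 20 or not at all, edgeR 4.0.16 and DESeq2 1.42.0 on recovered reads, a length and GC correction, the replicate number as a block and leaving out each library. The fits were tested on simulated data. Python 3.11.15 was used for the other steps.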

Additional observations from a re-analysis of the deposited data

How the results depend on the processing

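The log2 fold changes of MUC1 and LCN2 kept their direction and their side of the threshold under 19 alternatives (adjusted p from 1.69e-12 to 0.00567 for MUC1 and from 1.89e-18 to 0.00258 for LCN2). Those of SPINK4, DMBT1, PROM2 and MUC5B also kept their direction. They were chosen for their rise in these same libraries, so that outcome follows largely from the choice and is no test. Leaving out 1 library at a time gave 3.21 to 3.40 for SPINK4, 2.96 to 3.40 for DMBT1, 2.27 to 2.45 for PROM2, 1.99 to 2.59 for MUC5B, 0.94 to 1.27 for MUC1, -0.59 to -0.49 for LCN2 and -0.42 to 0.28 for SLPI. SLPI, which the filter on a mean of 20 removes, had adjusted p-values from 0.568 to 0.998 under the 18 alternatives that tested it, and its few reads limit what could be seen. Genes called higher numbered 3751 to 4876 and lower 4027 to 5550, and related genes 49 to 59 and 22 to 29. Of the smaller counts, lower mucins were 1 to 3, lower O-glycosylation genes 1 to 4 and lower NF-κB and STAT3 genes 2 to 4. Inhibitors called higher were 1 to 2, and those called lower were also 1 to 2.

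DMSO and BRL-50481 libraries of the same number had correlated deviations of 0.121, 0.104 and 0.051, against -0.159 to 0.061 for unlike numbers. These values do not settle whether the numbers pair the cultures, so the replicate number was used only in alternative fits. With the replicate number as a block, limma gave 1.15 for MUC1 (adjusted p = 1.94e-05), -0.53 for LCN2 (adjusted p = 5.12e-06) and -0.11 for SLPI (adjusted p = 0.886), with 4440 genes higher and 4589 lower. The block changed no call of the 7 genes.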
